A study of Gallus gallus with 6 samples.

Results

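Transcripts of cytosolic HSP90 and of 8 of its co-chaperones were examined in the uterovaginal junction of breeder hens, the stretch of oviduct that carries the sperm storage tubules. The 10 genes were chosen by symbol, with earlier results of these data known: HSP90AA1, HSP90AB1, CHORDC1, STIP1, AHSA1, FKBP4, CACYBP, PTGES3, PTGES3L and CDC37. Each symbol stood on 1 of the 20285 gene rows of the count table, and all 10 had enough reads to be among the 15655 rows tested. The 2 groups were thermoneutral hens at 23 °C and heat-stressed hens at 36 °C for 6 h, with 3 libraries each. RNA from 4 hens was pooled per library, so each p-value reflects how pools, not single birds, vary. Strain and age are not given in the sources.

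HSP90 is an ATP-driven chaperone that helps kinases, steroid receptors and other client proteins reach or keep an active fold, and co-chaperones steer it through its cycle. STIP1 hands clients over from HSP70, CDC37 brings kinases, AHSA1 speeds ATP use, PTGES3 holds the closed ATP-bound state, and FKBP4 sits in steroid receptor complexes. Vertebrates carry an inducible cytosolic form, HSP90AA1, and a form described in mammals as constitutive, HSP90AB1. Heat induces many of these genes through the transcription factor HSF1.

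Library totals ran from 23438814 to 29502991 counts. Among the 3092 genes called changed (edgeR quasi-likelihood test, Benjamini-Hochberg adjusted p under 0.05), heat stress replicate 1 was the heat library nearest to the thermoneutral mean for 62.6%, against 22.1% for replicate 2 and 15.3% for replicate 3. The changes of the 10 genes are therefore also given without that library. Leaving out the nearest heat library makes a called change larger by construction. A larger value without it is thus no separate support for that change. Levels are CPM, counts scaled to a common library size after TMM normalization, given as mean ± SD over n = 3 libraries. The summed CPM of the marker lists overlapped between the groups for smooth muscle (5547 to 8916 in thermoneutral and 5289 to 7048 in heat-stressed libraries), ciliated cells (1538 to 1869 and 1520.5 to 1731), epithelium (6705 to 7556 and 6530.2 to 7802), leukocytes (1255 to 1361 and 996 to 1302), erythrocytes (211 to 264 and 189.8 to 219) and the hen oviduct (598 to 747 and 709 to 846). Of these lists' tested genes 1 of 10, 1 of 9, 1 of 8, 1 of 9, 0 of 5 and 0 of 7 passed, each of them lower under heat. In the same order, the median log2 changes of the lists were −0.37, −0.04, 0.01, −0.38, −0.21 and 0.21. That of all genes tested was −0.01, so overlapping sums do not show an unchanged make-up of the tissue. Some further markers of these lists passed as lower under alternative methods, as given in the last section. No marker in the table was at 0 in all libraries, and PGR, the progesterone receptor of the oviduct, stood at 522 ± 63.3 CPM in thermoneutral hens. In bulk tissue, fewer cells of a type and less RNA per cell cannot be told apart.

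Heat stress came with more transcript of HSP90AA1 and of 7 co-chaperones, with less of PTGES3L, and with no called change in HSP90AB1. Thus 8 of 10 genes were higher, where 10.2% of all genes tested were, and 1 was lower, against 9.52%. Over all genes 1602 calls were higher and 1490 lower, a split that upper-quartile scaling turned to 1265 and 1789. In all, 9 of 10 were called, where the share over the table was 19.8%. The median log2 change of the 10 genes was 1.00, and that of all genes tested was −0.01. Groups without overlap in CPM were found in 9 of the 10 genes and in 42.6% of all genes tested. The 10 genes were chosen with earlier results of these data known, so these shares describe them and are no independent support for an excess. The same holds for the lists of other co-chaperones and clients below.

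HSP90AA1 had the highest level of the 10 genes in every library, per length as well as in CPM. It lies on chromosome 5 (49673894 to 49685640, minus strand, GRCg6a). Its level was 1810.4, 2045 and 2167 CPM in thermoneutral replicates 1, 2 and 3, and 7760.0, 17129.8 and 14781 CPM in heat stress replicates 1, 2 and 3. The lowest heat library, replicate 1, was thus far above the highest thermoneutral one and well below the other heat libraries. The group means were 2007 ± 181 and 13224 ± 4875 CPM. The log2 change was 2.72 (SE 0.29, 95% interval 2.03 to 3.41), a 6.59-fold rise, at an edgeR adjusted p of 0.00814.

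Ranked by counts, HSP90AA1 stood at places 23, 14 and 16 of all genes in the thermoneutral libraries. In the heat libraries it stood at places 3, 1 and 1. Its share of all counts was 0.189%, 0.211% and 0.223% under thermoneutral conditions and 0.767%, 1.62% and 1.42% under heat. The rise passed in all 6 fits that left out 1 library, with log2 changes from 2.50 to 3.01 and adjusted p up to 0.0472, and it was 3.01 without heat stress replicate 1.

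HSP90AB1, on chromosome 3 (30393097 to 30399049, minus strand), had 472 to 786 counts per library. It measured 20.7, 22.6 and 20.8 CPM in thermoneutral and 19.0, 28.2 and 22.4 CPM in heat libraries, and the groups overlapped on both sides. The log2 change was 0.12 (SE 0.15, 95% interval −0.22 to 0.46, adjusted p = 0.594), and without heat stress replicate 1 it was 0.26. Its sign changed, to −0.035, when heat stress replicate 2 was left out. HSP90AA1 and HSP90AB1 are paralogs, and the sources do not give how reads that match both were counted.

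**Figure D1:**
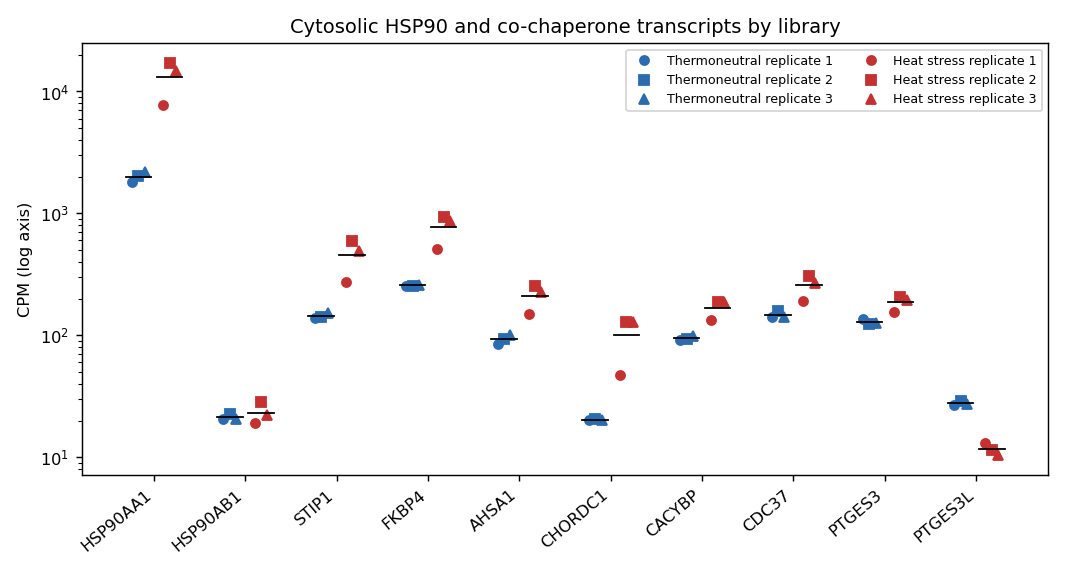
CPM of each of the 10 genes (log axis) in the 3 thermoneutral (blue) and 3 heat stress (red) libraries, with a symbol per replicate and a bar at each group mean. The groups are apart for every gene but HSP90AB1, PTGES3L is the gene that lies lower under heat, and HSP90AA1 reaches 7760.0 to 17129.8 CPM.

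Because 2 genes can be compared only per length, the ratio of HSP90AA1 to HSP90AB1 was taken from the deposited FPKM values. These scale fragment counts by a length and by library depth. The length used is not stated, and for both genes it was shorter than the one listed. The ratio was 71.0, 73.4 and 84.6 in thermoneutral libraries and 332, 494 and 535 in heat libraries. Its size depends on how reads matching both paralogs were counted, which is not given. No heat library came near a thermoneutral one. The log2 ratio was 2.55 higher under heat (exact permutation test, two-sided, p = 0.1, n = 3 against 3, the smallest p this design can give). HSP90AA1 was far higher in every heat library and HSP90AB1 varied far less, so this p was fixed in advance and adds no support. Without heat stress replicate 1 the difference was 2.76. The gene lengths listed in the table gave lower ratios, of 52.3, 54.0 and 62.3 and then 245, 363 and 394.

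Of the co-chaperones that bind HSP90 through repeat domains, STIP1 rose 3.13-fold and FKBP4 2.99-fold. STIP1 (HOP), the adaptor that holds HSP70 and HSP90 together, lies on chromosome 33 (6279785 to 6287371, minus strand). Its level was 139, 141 and 153 CPM in thermoneutral and 274, 590.0 and 493 CPM in heat libraries, and heat stress replicate 1 was the lowest of the heat values. Its log2 change was 1.65 (SE 0.27, 95% interval 1.00 to 2.29, adjusted p = 0.0137), and 1.93 without heat stress replicate 1. Leaving out thermoneutral replicate 2 or heat stress replicate 3 ended the call, with log2 changes of 1.63 and 1.58.

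FKBP4, the immunophilin FKBP52 of steroid receptor complexes, lies on chromosome 1 (75399377 to 75413553, minus strand). Its level was 255, 256 and 261 CPM in thermoneutral replicates 1, 2 and 3, a mean of 257 ± 3.43 CPM with a coefficient of variation of 1.33%, the lowest of the 10 genes. In the heat libraries it measured 508, 942 and 859 CPM, all well above the thermoneutral ones. Its change on the log2 scale was 1.58 (SE 0.22, 95% interval 1.07 to 2.10, adjusted p = 0.0102), and 1.83 without heat stress replicate 1. Of the leave-one-out fits, only the one lacking heat stress replicate 3 lost the call, at an adjusted p of 0.0508.

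CHORDC1, an HSP90-binding protein with zinc-binding CHORD domains, had the largest fold among the co-chaperones. It lies on chromosome 1 (188868223 to 188880800, plus strand). The thermoneutral libraries held 20.1, 20.6 and 20.1 CPM and the heat libraries 47.2, 128 and 128 CPM. Heat stress replicates 2 and 3 were thus level with each other while replicate 1 stood between them and the thermoneutral libraries, and the coefficient of variation over the heat libraries was 46.1%, the highest of the 10 genes. This gave a log2 change of 2.31 (SE 0.39, 95% interval 1.35 to 3.28, 4.97-fold, adjusted p = 0.0166), and 2.67 without heat stress replicate 1. It passed in 2 of the 6 leave-one-out fits, those lacking heat stress replicates 1 and 2, and its log2 change stayed between 2.11 and 2.67 in all 6.

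AHSA1, the activator of the HSP90 ATPase, lies on chromosome 5 (39441320 to 39446996, plus strand). It went from 85.6, 93.4 and 101 CPM to 151, 252 and 225 CPM, with no overlap. Its log2 change was 1.16 (SE 0.18, 95% interval 0.73 to 1.60, adjusted p = 0.0118), a 2.24-fold rise, and 1.37 without heat stress replicate 1. CDC37, the kinase-specific co-chaperone, on chromosome 30 (169389 to 179029, plus strand), went from 147 ± 9.21 to 257 ± 59.7 CPM. The heat libraries held 192, 309 and 270.0 CPM, against 141 to 157 CPM in thermoneutral libraries. This was a 1.75-fold rise (log2 change 0.81, SE 0.17, 95% interval 0.41 to 1.20, adjusted p = 0.0202), at 1.00 without heat stress replicate 1. AHSA1 passed in 4 of the 6 leave-one-out fits (all but those lacking thermoneutral replicate 2 or heat stress replicate 3), and CDC37 in 2 (those lacking heat stress replicates 1 and 2).

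CACYBP, PTGES3 and PTGES3L each carry a CS domain, the p23-like fold, though not as the only ones here. Of these, CACYBP and PTGES3 rose and PTGES3L fell. CACYBP, which binds calcyclin and the ubiquitin ligase adaptor SIAH1 in mammals, lies on chromosome 8 (7478362 to 7485785, minus strand). It went from 91.6, 94.1 and 99.2 CPM to 133, 187 and 187 CPM, a 1.78-fold rise (log2 change 0.83, SE 0.13, 95% interval 0.52 to 1.14, adjusted p = 0.0115), and 1.00 without heat stress replicate 1. The same 2 left-out libraries as for AHSA1 ended its call.

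PTGES3, the co-chaperone p23, lies on chromosome 33 (6885732 to 6894210, plus strand) and had the smallest of the 8 rises. It measured 137, 125 and 126 CPM in thermoneutral and 156, 208 and 194 CPM in heat libraries, and the gap between the nearest libraries of the groups was narrow. The log2 change was 0.52 (SE 0.11, 95% interval 0.26 to 0.78, 1.44-fold, adjusted p = 0.0203), and 0.65 without heat stress replicate 1. Leaving out heat stress replicate 1 or thermoneutral replicate 1 kept the call, and each of the other 4 leave-one-out fits ended it.

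PTGES3L, annotated as a PTGES3-like gene on chromosome 27 (7912340 to 7914343, minus strand), moved the other way. Its level was 27.0, 28.8 and 27.5 CPM in thermoneutral and 13.1, 11.5 and 10.4 CPM in heat libraries, so the groups were far apart and the libraries of each group close together. The log2 change was −1.25 (SE 0.11, 95% interval −1.51 to −0.99), 2.38-fold lower, at an adjusted p of 0.00722. The fall passed in all 6 leave-one-out fits (−1.32 to −1.17, adjusted p up to 0.0471), with −1.32 without heat stress replicate 1. The summed CPM of the skeletal muscle markers was 53.7 to 103 CPM in thermoneutral and 29.95 to 45.3 CPM in heat libraries, while the median log2 change of the 6 tested markers was 0.19. Most of the sum was ACTA1, the skeletal muscle actin, which fell from 75.2 ± 25.1 to 30.1 ± 7.92 CPM (log2 change −1.32, SE 0.29, adjusted p = 0.0282) and was the 1 of 6 tested markers of that list to pass. TNNI2, a fast skeletal troponin, had a log2 change of 0.87 (adjusted p = 0.1496). Of the leave-one-out fits, those lacking heat stress replicate 1 or thermoneutral replicate 1 kept the call of ACTA1. A further 6 of the 10 markers in the table averaged under 1 CPM. The part of ACTA1-expressing muscle in the fall of PTGES3L was not tested.

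**Figure D2:**
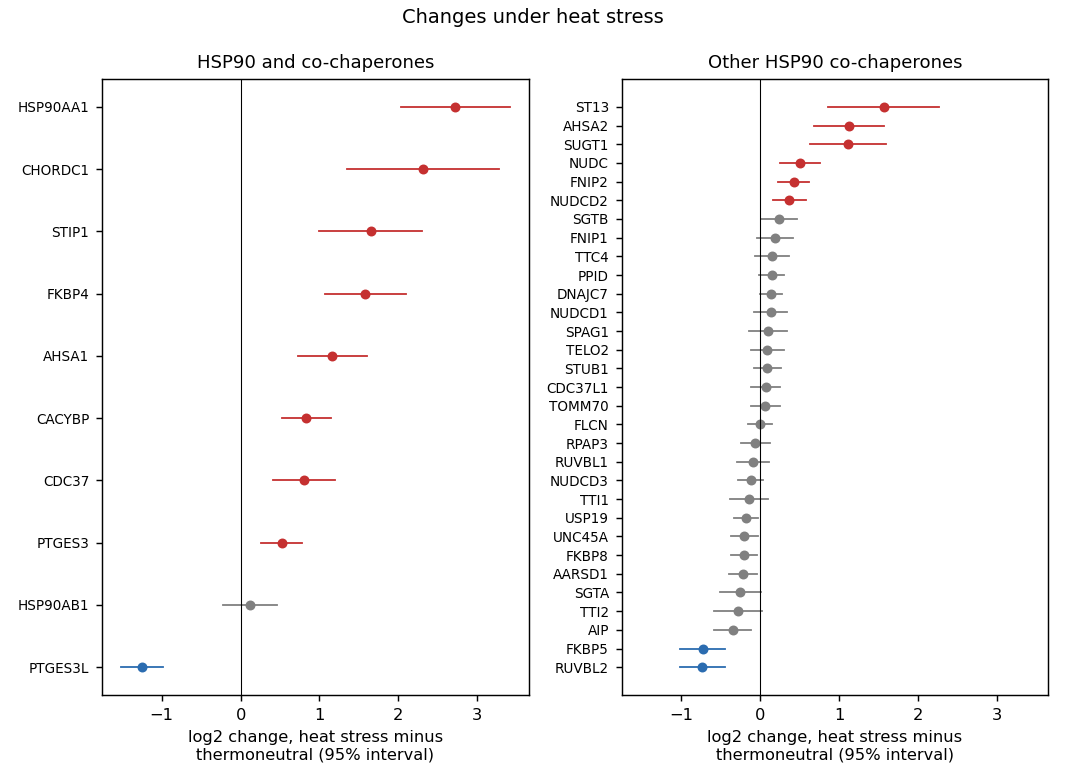
Log2 change (heat stress minus thermoneutral) with its 95% interval for the 10 genes on the left and the 31 tested genes of the list of other HSP90 co-chaperones on the right, coloured red where higher, blue where lower and grey where the test was not passed. The 8 risen genes on the left span 0.52 to 2.72 and PTGES3L lies at −1.25, while most genes on the right lie near 0.

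The size of the response differed between the heat pools in much the same way from gene to gene. Heat stress replicate 1 was the heat library nearest to the thermoneutral mean for 9 of the 9 called genes. Over the whole table it was so for 62.6% of the 3092 called genes. HSP90AA1 stood at 3.87, 8.53 and 7.36 times its thermoneutral mean in heat stress replicates 1, 2 and 3. CHORDC1 stood at 2.32, 6.29 and 6.29 times, STIP1 at 1.90, 4.09 and 3.41 times and FKBP4 at 1.98, 3.66 and 3.34 times. The co-chaperones with smaller rises also had replicate 1 lowest, down to PTGES3 at 1.203, 1.605 and 1.502 times. PTGES3L had the narrowest spread over the heat libraries, at 0.473, 0.415 and 0.374 times and a coefficient of variation of 11.8%. In the thermoneutral libraries the coefficients of variation of the 10 genes ran from 1.33% to 9.02%.

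**Figure D3:**
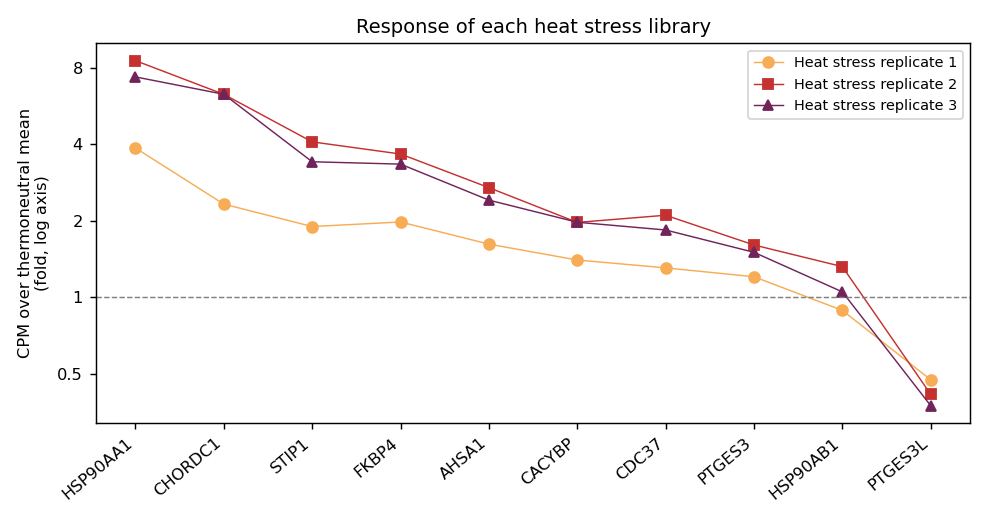
CPM of each gene in the 3 heat stress libraries over its thermoneutral mean (log axis, 1 line per library, dashed line at no change). Replicate 1 runs nearest to the dashed line for the 8 risen genes and PTGES3L, at 3.87 for HSP90AA1 against 8.53 and 7.36 in replicates 2 and 3.

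How many of the 10 genes were called depended on single libraries, while all 9 called genes kept their direction. Without heat stress replicate 1 all 8 rises passed, and without heat stress replicate 2, 7 did. Without thermoneutral replicates 1, 2 and 3 in turn 6, 2 and 5 rises passed. Without heat stress replicate 3 the rise of HSP90AA1 alone passed. The fall of PTGES3L passed each time. Of all genes tested, 3699 were called without heat stress replicate 1 and 299 without replicate 3.

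**Figure D4:**
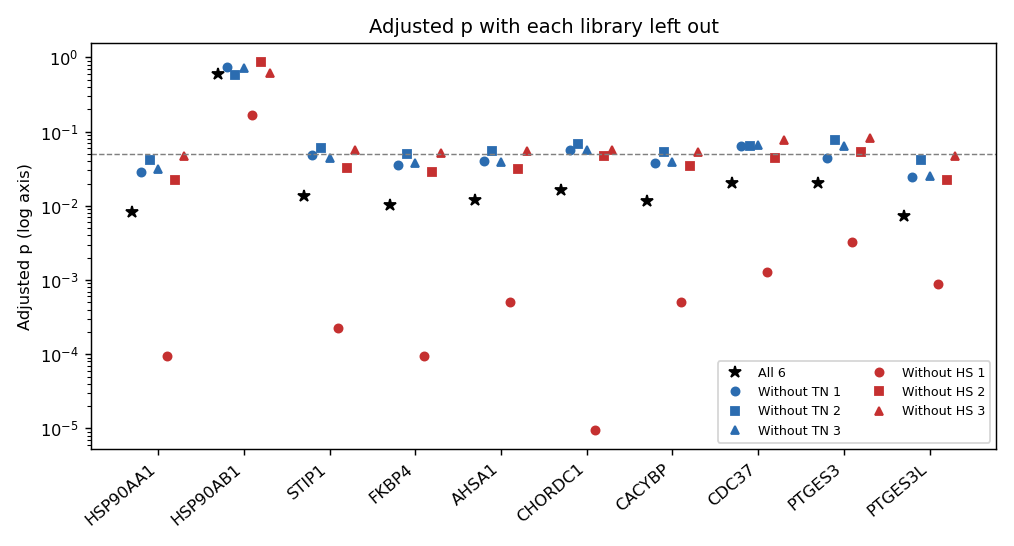
Benjamini-Hochberg adjusted p of edgeR's quasi-likelihood test for each gene (log axis) with all 6 libraries (star) and with each library left out, the dashed line marking 0.05. HSP90AA1 and PTGES3L stay under the line throughout, with adjusted p up to 0.0472 and 0.0471, and HSP90AB1 stays above it.

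Per length, the 10 genes spanned a wide range of levels, in FPKM. In thermoneutral libraries the order was HSP90AA1 at 694 ± 58.3, FKBP4 at 144 ± 1.40, PTGES3 at 118 ± 6.92, STIP1 at 91.3 ± 4.55, AHSA1 at 62.5 ± 4.67, CDC37 at 59.4 ± 3.64, CACYBP at 33.0 ± 1.16, PTGES3L at 32.3 ± 0.98, CHORDC1 at 11.9 ± 0.17 and HSP90AB1 at 9.10 ± 0.44. Among neighbours in this order AHSA1 overlapped CDC37 and CACYBP overlapped PTGES3L. Under heat HSP90AA1 stood at 4233 ± 1486 FPKM, FKBP4 at 399 ± 112 and STIP1 at 265 ± 89.9. STIP1 now lay above PTGES3, at 157 ± 19.4, in each heat library, though their ranges over the heat libraries overlapped. The mean of CHORDC1, at 54.7 ± 24.5 FPKM, had come level with that of CACYBP at 54.6 ± 9.09. CHORDC1 was below CACYBP in heat stress replicate 1 (26.4 against 44.1 FPKM). It was above CACYBP in replicates 2 (68.2 against 59.3) and 3 (69.4 against 60.4). PTGES3L, at 12.7 ± 1.73, was down to the range next to HSP90AB1 at 9.17 ± 1.64.

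The deposited FPKM values rest on a shorter length than the one listed for 5 of the genes, among them HSP90AA1 (2995 against 4681 bases), FKBP4 (1852 against 2519 bases) and PTGES3 (1141 against 3070 bases). With the listed lengths PTGES3 would fall to 43.7 on the same scale, below CDC37, so its place in the order depends on the length used.

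Set against HSP90, the co-chaperone transcripts rose less. The summed FPKM of the 8 co-chaperones was 0.858, 0.768 and 0.739 of the summed FPKM of both HSP90 genes in thermoneutral libraries. Under heat it was 0.322, 0.259 and 0.270. The groups did not overlap, and with the listed lengths the shares were 1.04, 0.944 and 0.911 and then 0.406, 0.335 and 0.348. FKBP4 went from 0.228, 0.202 and 0.195 of the FPKM of HSP90AA1 to 0.106, 0.0889 and 0.0940. CHORDC1 stayed nearest to its thermoneutral share, at 0.0189, 0.0171 and 0.0157 and then 0.0103, 0.0126 and 0.0146. PTGES3L dropped from 0.0502, 0.0474 and 0.0426 to 0.00569, 0.00226 and 0.00236.

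**Figure D5:**
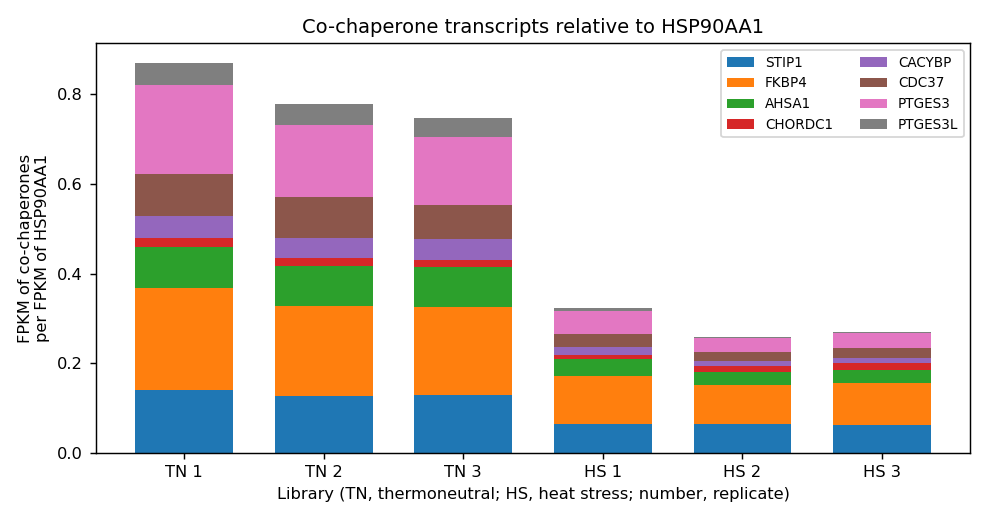
FPKM of each of the 8 co-chaperones per FPKM of HSP90AA1, stacked, in each library. The stacks are lower in all 3 heat stress libraries than in any thermoneutral one, with FKBP4 at 0.195 to 0.228 in thermoneutral and 0.0889 to 0.106 in heat libraries.

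A wider list of other HSP90 co-chaperones changed in part. Of 38 listed genes 33 were in the table and 31 were tested: 6 were higher, 2 lower and 23 did not pass, a called share of 25.8% beside 19.8% over all genes, and the median log2 change was 0.07. ST13 (HIP), which binds HSP70 and takes part in the same relay as STIP1, went from 101 ± 3.85 to 300.1 ± 113 CPM (log2 change 1.57, SE 0.29, adjusted p = 0.0184). SUGT1, a CS-domain partner of HSP90, went from 95.02 ± 3.70 to 205 ± 57.1 CPM (1.11, SE 0.20, adjusted p = 0.0157). AHSA2, the relative of AHSA1 that the table describes as a pseudogene, went from 60.1 ± 4.33 to 131 ± 33.3 CPM (1.12, SE 0.19, adjusted p = 0.0130), and reads shared with AHSA1 are possible. FNIP2, a folliculin-interacting protein that slows the HSP90 ATPase in human cells, rose by a log2 change of 0.42 (SE 0.09, adjusted p = 0.0179). The remaining rises, singled out after their values were seen, were NUDC (0.51, SE 0.11, adjusted p = 0.0203) and its relative NUDCD2 (0.37, SE 0.09, adjusted p = 0.0297).

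Several further genes of this list did not pass. PPID, the cyclophilin of receptor complexes, had a log2 change of 0.15 (adjusted p = 0.159), UNC45A, a myosin chaperone, −0.20 (adjusted p = 0.0973) and AARSD1 −0.21 (adjusted p = 0.0835). UNC45B, the striated muscle form, had 1, 0 and 0 counts in thermoneutral and 0, 5 and 0 counts in heat libraries and was not tested. When thermoneutral replicate 2 or heat stress replicate 3 was left out, 0 genes of the list were higher and 0 lower. Without thermoneutral replicates 1 and 3 there were 2 higher and 2 lower each time, and without heat stress replicates 1 and 2 there were 6 and 4 higher and 4 and 2 lower.

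FKBP5, the immunophilin FKBP51 that shares receptor complexes with FKBP4 and slows glucocorticoid receptor signalling in mammals, fell while FKBP4 rose. Its level was 68.2, 88.9 and 95.1 CPM in thermoneutral and 52.7, 49.2 and 50.6 CPM in heat libraries. The heat libraries were close together and all under the lowest thermoneutral one. Its log2 change was −0.73 (SE 0.12, adjusted p = 0.0119), and 4 of the 6 leave-one-out fits kept the call, the exceptions lacking thermoneutral replicate 2 or heat stress replicate 3. The FPKM ratio of FKBP4 to FKBP5 was 4.47, 3.44 and 3.29 in thermoneutral and 11.6, 22.9 and 20.3 in heat libraries (exact permutation test of the log2 ratio, p = 0.1, the smallest possible). Since FKBP4 was higher and FKBP5 lower in every heat library, this p was fixed in advance and adds no support. RUVBL2, an AAA+ ATPase of the R2TP complex that works with HSP90, fell as well, from 155 ± 5.40 to 93.3 ± 16.6 CPM (log2 change −0.73, SE 0.12, adjusted p = 0.0118), with the same 2 left-out libraries ending its call.

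The HSP90 paralogs of other compartments differed from each other. HSP90B1 (GRP94), the form in the endoplasmic reticulum, rose from 521 ± 31.1 to 1160.2 ± 156 CPM (log2 change 1.16, SE 0.11, adjusted p = 0.00722) and passed in all 6 leave-one-out fits, between 1.07 and 1.28. TRAP1, of mitochondria, stood at 102 ± 3.12 and 101 ± 3.15 CPM (−0.02, SE 0.06, adjusted p = 0.868).

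Of 64 listed client proteins of HSP90, 58 were in the table and 57 were tested. For these, 12 transcripts were higher, 5 lower and 40 did not pass, a called share of 29.8% beside 19.8% over all genes, with a median log2 change of 0.02. MET, the receptor of hepatocyte growth factor, went from 13.1 ± 3.42 to 31.1 ± 3.20 CPM (1.24, SE 0.19, adjusted p = 0.0107). The stress kinase MAP3K5 (ASK1) rose by a log2 change of 0.88, the insulin-like growth factor receptor IGF1R by 0.68, MAP3K7 (TAK1) by 0.45 and PDPK1 by 0.36. ILK, the integrin-linked kinase, fell by 0.51 on the log2 scale. Among steroid receptors the glucocorticoid receptor NR3C1 went from 12.3 ± 0.912 to 18.4 ± 2.04 CPM (0.58, SE 0.13, adjusted p = 0.0215), while PGR (0.18, adjusted p = 0.246) and ESR1 (−0.31, adjusted p = 0.102) did not pass. The call of NR3C1 was kept in 2 leave-one-out fits, those lacking heat stress replicate 1 or thermoneutral replicate 1. No client was higher or lower without heat stress replicate 3, and 2 were higher and 0 lower without thermoneutral replicate 2. Without thermoneutral replicates 1 and 3 there were 11 and 9 higher and 2 lower each time, and without heat stress replicates 1 and 2 there were 15 and 9 higher and 7 and 1 lower.

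Some of the 10 genes lie close to or overlap other annotated genes. A lncRNA (ENSGALG00000050298) starts 201 bp from HSP90AA1 on the opposite strand and had 6, 1 and 1 counts in thermoneutral and 12, 72 and 32 counts in heat libraries (log2 change 3.74, SE 0.85, adjusted p = 0.0256). VIPAS39, 435 bp upstream of AHSA1 on the opposite strand, went from 50.0 to 73.5 CPM (0.55, SE 0.12, adjusted p = 0.0213). An unnamed transcript 41 bp upstream of FKBP4, also on the opposite strand, went from 28.3 to 58.0 CPM (1.04, SE 0.27, adjusted p = 0.0420). The calls of all 3 held when heat stress replicate 1 was left out, that of the lncRNA also when thermoneutral replicate 1 was, and each of the other leave-one-out fits ended them. The call of the unnamed transcript was also lost with no filter on low counts (adjusted p = 0.0635).

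The other neighbours tested were not called higher. An unnamed protein-coding gene 20 bp downstream of STIP1 on the same strand had a log2 change of 0.39 (adjusted p = 0.310). Without heat stress replicate 1 it passed as higher (0.66, adjusted p = 0.0144). NAALAD2, 10514 bp downstream of CHORDC1 on the opposite strand, fell by 0.98 on the log2 scale (adjusted p = 0.0273). That call was kept in 1 of the 6 leave-one-out fits. RUNDC1, 86 bp upstream of PTGES3L on the opposite strand, had a log2 change of 0.18 (adjusted p = 0.0984), and AARSD1, 62 bp downstream on the same strand, is joined to PTGES3L by a readthrough transcript in humans and did not pass, as given above. SLC35B2, 176 bp downstream of HSP90AB1 on the opposite strand, fell by 0.73 on the log2 scale (adjusted p = 0.00956). Overlaps with annotated genes were 838 bp with MRPS14 for CACYBP (opposite strand), 730 bp with NACA and 865 bp with ATP5F1B for PTGES3, and 427 bp with TYK2 for CDC37 (all on the same strand). None of these 4 passed, with log2 changes of 0.01, 0.06, −0.27 and −0.23. Under alternatives ATP5F1B passed as lower with DESeq2 (adjusted p = 0.0106), limma-voom (0.0474), the stricter filter (0.0374) and upper-quartile scaling (0.0370), and TYK2 with the last 2 of these (0.0481 and 0.0475). The sources do not give the strand setting of the counting, and reads in such overlaps are uncertain.

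Across the 6 libraries, log2 CPM of 10645 genes with a symbol and at least 1 CPM on average was compared with that of HSP90AA1 and of PTGES3L. The 5 genes most like HSP90AA1 by Pearson's r were RPS6KA1L (0.9986), the HSP40 co-chaperone DNAJA1 (0.9984), the SUMO protease SENP6 (0.9978), MTHFD2L (0.9974) and TMEM183A (0.9971). For PTGES3L they were NDUFA8 (0.999), HMG20B (0.9972), ARPC4 (0.9971), DUSP15 (0.9969) and CYP11A1 (0.9969). The points are 6 libraries in 2 groups, so any gene that separates the groups scores high.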

How the data were processed

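RNA-seq read counts per gene, as deposited by the authors, are raw whole numbers. The submitters' processing notes list featureCounts 1.5.0-p3, HISAT2 2.0.5 and fastp, and GRCg6a as the build; the role of each is not stated. Per the labels' protocols mRNA was selected with poly-T beads. FPKM values deposited by the authors served for levels per length only. In 42.8% of the 12194 rows with over 100 counts in thermoneutral replicate 1 they rest on a shorter length than the table lists. RefSeq symbols (GRCg7b table, names only) were added to 675 rows; FKBP5 is FKBP51 in the table.

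The whole table was tested with edgeR 4.0.16 (TMM, filterByExpr, robust quasi-likelihood fit, Benjamini-Hochberg threshold 0.05) over 15655 rows. SE is the absolute log2 change over the square root of F. The common biological coefficient of variation was 0.174, so counting error matters mainly in rows of few counts. No library was a copy of another of its group (chi-square of counts per degree of freedom 22.1 to 107). The fit was also run on simulated data with equal spread in both groups, and that outcome is not given here. Alternatives were other scalings, filters, DESeq2 1.42.0, limma-voom 3.58.1, a replicate block and each library left out. Named genes were all 10, up to 6 called genes per list by adjusted p, a fixed set of further listed genes, nearest neighbours and the 5 most alike. The 10 genes and all lists were chosen with earlier results of these data known.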

Additional observations from a re-analysis of the deposited data

How the results depend on the processing

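All 7 alternatives that kept every library (2 scalings, no filter, a stricter filter, DESeq2, limma-voom and the replicate block) gave 8 higher and 1 lower of the 10 genes, and no log2 change of a member moved by more than 0.14. With the replicate block, 8 were higher and 1 lower, and 2722 genes were called over the table. The numbers share no source in the labels, and deviations of same-numbered libraries correlated at −0.05, 0.25 and 0.07, so they were not taken as pairs. Outside the 10 genes, the block ended the calls of ACTA1 (adjusted p = 0.0967), SYNPO2 (0.0585), NDUFA8 (0.0749) and the lncRNA next to HSP90AA1 (0.0517), and LMOD1 (0.0356) and KRT18 (0.0330) passed with it. With DESeq2 the markers LMOD1 (smooth muscle, adjusted p = 0.0246), KRT18 (epithelium, 0.0147), CSF1R (leukocytes, 0.0267) and HBBA (erythrocytes, 0.0210) passed as lower. CSF1R also passed as lower under the stricter filter (0.0436) and upper-quartile scaling (0.0414). Upper-quartile scaling split all calls into 1265 higher and 1789 lower, against 1602 and 1490. Of the other co-chaperones, 5 were lower under the stricter filter and 5 under upper-quartile scaling, against 2. The cause was not tested.

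With a library left out, 1 to 8 of the 10 genes were higher and 1 lower each time. The other co-chaperones had 0 to 6 higher and 0 to 4 lower, the clients 0 to 15 and 0 to 7, and 299 to 3699 genes were called in all. The log2 ratio of HSP90AA1 to HSP90AB1 differed by 2.41 to 2.76. Over the 10 genes and 6 such fits 40 values kept both direction and side of the threshold, 19 lost the call, and 1, not called either way, changed sign. Values near 0 changed sign. HSP90AB1 ran from −0.035 (without heat stress replicate 2) to 0.26 (without heat stress replicate 1). TRAP1 ran from −0.032 (without heat stress replicate 2) to 0.012 (without heat stress replicate 1), with 0.0015 and 0.0095 when heat stress replicate 3 and thermoneutral replicate 3 were left out. MRPS14 was −0.018 under the stricter filter and −0.032 under upper-quartile scaling, and ran from −0.0031 (without thermoneutral replicate 1) to 0.050 (without heat stress replicate 3). As a share of summed FPKM, HSP90AA1 held 0.759% of the heat libraries on average, against 1.27% of counts. Depth limits the lncRNA next to HSP90AA1, which had under 10 counts in each thermoneutral library.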
